A study of Mus musculus with 5 samples.

Results

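The 9 genes described here encode the core of the Sonic hedgehog pathway. They are the receptors and co-receptors Ptch1, Hhip, Boc and Gas1, the transducer Smo, the inhibitor Sufu and the transcription factors Gli1, Gli2 and Gli3, and they are 9 of the 21938 protein-coding genes of the annotation. They were chosen by name and by no cut on a measured value, though earlier results of these data were known. All peaks of 4 deposited ChIP-seq lists were taken that touched a gene body or the 10 kb on either side of it. ChIP-seq sequences the DNA that an antibody to a protein pulls down, and a peak is a stretch where such DNA piles up.

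In the absence of hedgehog ligand, Ptch1 keeps Smo inactive, and Sufu holds the Gli factors back while Gli3 and part of Gli2 are cut to repressor forms. Ligand lifts this block, full-length Gli proteins enter the nucleus, and Gli1, Ptch1 and Hhip are among the genes they switch on. In the cerebellum this pathway drives the expansion of granule neuron precursors, and its activation gives rise to the SHH subgroup of medulloblastoma.

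The MG tumors profiled here are a mouse model of medulloblastoma. Prominin1+, lineage-negative neural stem cells from the cerebella of C57BL/6 pups aged 5 to 7 days received retroviruses carrying Myc T58A, a stabilized form of Myc, and Gfi1. They were then transplanted into the cerebella of immunodeficient NSG mice. Gfi1 is a zinc finger repressor, and Lsd1 (Kdm1a) is a histone demethylase that works with it. Each was precipitated with 4 ug of antibody from the same 2 tumors, tumor 39 (replicate 1) and tumor 41 (replicate 2), so that the 4 libraries form 2 pairs. Myc and Gfi1 are driven by virus in all of these tumors, and the chromatin is that of bulk tumor, in which host cells may be present. In such chromatin, fewer cells bound at a site and less binding per cell cannot be told apart. The lists hold no expression values, so that the cell type was not checked against marker genes. The 1 listed input library comes from pooled tumors made with Myc and Gfi1b, not analysed here, and the sources do not say which libraries it served.

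The lists hold 36836 (Gfi1, tumor 39), 25078 (Gfi1, tumor 41), 30367 (Lsd1, tumor 39) and 33213 peaks (Lsd1, tumor 41), each with its position and a score. The score has no stated definition and was never below 50, and 805, 12, 113 and 419 peaks in turn shared the score 3100. It was therefore used only as a percentile within its own list, the share of that list's peaks that score lower, with tied peaks given their mean rank. Read counts are not part of the lists, and read depth was not used here. With 2 tumors an exact permutation test could not give a two-sided p below 0.333. No test between groups was run, and the spread is the SD between tumors or libraries.

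Promoters of the members were compared first by sequence, since the ranks below differ most between 2 promoters that are both rich in CG. RefSeq promoter sequences on GRCm38.p6, the build of mm10, were matched for 7 of the 9 genes, with Boc and Gli1 not matched. The 250 bases before the start are shown for Ptch1 at chr13:63565736-63565985 on the minus strand and for Gli3 at chr13:15463473-15463722 on the plus strand, with each CG in capitals.
Ptch1 promoter: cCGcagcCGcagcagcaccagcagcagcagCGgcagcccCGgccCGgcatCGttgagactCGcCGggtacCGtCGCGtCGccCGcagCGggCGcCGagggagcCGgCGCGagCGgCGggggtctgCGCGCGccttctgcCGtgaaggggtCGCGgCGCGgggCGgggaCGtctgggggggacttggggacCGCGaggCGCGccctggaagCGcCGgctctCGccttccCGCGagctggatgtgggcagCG
Gli3 promoter: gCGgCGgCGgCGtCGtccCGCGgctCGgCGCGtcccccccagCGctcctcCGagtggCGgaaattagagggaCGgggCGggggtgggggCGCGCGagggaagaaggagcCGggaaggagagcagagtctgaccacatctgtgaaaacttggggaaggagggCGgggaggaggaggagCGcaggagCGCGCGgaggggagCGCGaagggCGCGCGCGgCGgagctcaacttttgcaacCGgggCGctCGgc
The Ptch1 sequence holds 41 CG pairs and the Gli3 sequence 34. Counted over the 300 bases of the RefSeq window, Ptch1 held 47, Gli3 39, Hhip 30, Gli2 28, Gas1 and Smo 17 each and Sufu 12, where the median of all 32851 promoters was 7. By this measure 98.6% of promoters held fewer CG pairs than Ptch1 and 95.6% fewer than Gli3.

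Of the 9 genes, 7 had a promoter peak in all 4 libraries, meaning a peak within 1000 bp of an annotated transcription start site (TSS) of the gene. Among all coding genes 53.1% did. Singly, the libraries placed a promoter peak at 65% (Gfi1, tumor 39), 54.3% (Gfi1, tumor 41), 58.5% (Lsd1, tumor 39) and 61.7% (Lsd1, tumor 41) of coding genes. With so few genes, their share is read as a description and not as particular to them. The exceptions were Hhip, with peaks in 3 libraries, and Gli3, with a peak in 1, so that each of the 9 genes had at least 1, where 33.6% of coding genes had none. Ptch1, Sufu, Gli1 and Gli2 had a promoter peak in the upper 20% of the score in every library, 4 of 9 genes against 19.9% of all coding genes.

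**Figure D1:**
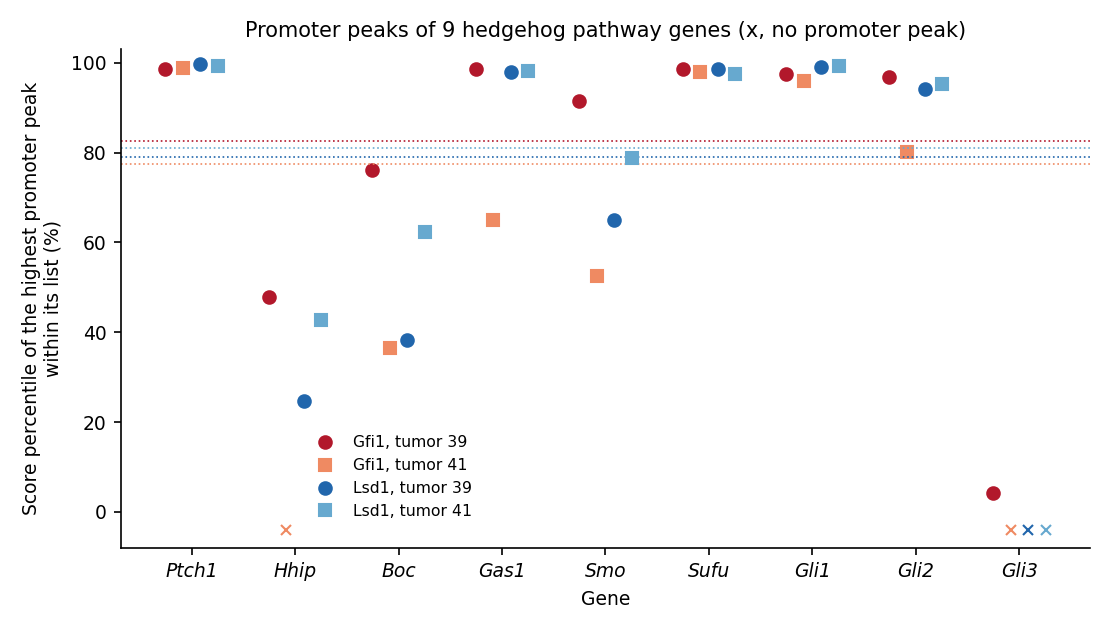
Score percentile, within its own list, of the highest promoter peak of each gene. Circles are tumor 39 and squares tumor 41, red for Gfi1 and blue for Lsd1, a cross marks no promoter peak, and dotted lines give the median over coding genes with a promoter peak in that library (82.5, 77.4, 79.0 and 81.0). Ptch1, Sufu and Gli1 sit above 95 in all 4 libraries, while Gli3 has 1 point, at 4.19.

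Ptch1 (chr13:63508328-63573598, minus strand), the membrane receptor that binds ligand and restrains Smo, had the highest mean promoter percentile of the 9 genes. Its highest peak stood at percentile 98.6 (Gfi1) and 99.7 (Lsd1) in tumor 39, and at 98.7 and 99.2 in tumor 41. Both tumors and both factors thus placed it near the top of their lists. In 3 of the 4 lists its score was 3100, the value shared with other peaks, and in the Gfi1 list of tumor 41 it was 1521. The peaks were broad, at 7301 bp (Gfi1) and 9341 bp (Lsd1) in tumor 39, and 3570 bp and 7492 bp in tumor 41. The Gfi1 list of tumor 41 split this stretch, with a further peak of 3346 bp at percentile 97.9 directly beside the highest. The highest peaks covered the start of the principal transcript, which lies inside the longer gene record. Together they spanned chr13:63560659-63569999, whose midpoint lies in intron 1 of that transcript. The start of A930032L01Rik lies in the same stretch or within 1000 bp of it.

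The outermost 5′ end of the Ptch1 gene record carried a separate and lower site, chr13:63571339-63574857, with the start of Gm30655 in it or within 1000 bp. Its percentiles were 93.6 (Gfi1) and 87.6 (Lsd1) in tumor 39, and 67.2 and 86.6 in tumor 41. The mean over the 4 libraries was 99.1 when the highest promoter peak was taken and 83.7 when the peak over the outermost 5′ end was taken, so that the rank of Ptch1 turned on which start was used. No other gene with 4 values moved by more than its spread under this choice.

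Hhip (chr8:79965851-80058006, minus strand), a membrane protein that binds hedgehog ligands and takes them out of play, had 1 site, chr8:80056627-80058908, over its first exon. The percentiles were 47.9 (Gfi1) and 24.6 (Lsd1) in tumor 39, and in tumor 41 Lsd1 stood at 42.7 while no Gfi1 peak was listed. All 3 values lie below the median promoter of their list. No other site was found in the 112 kb window, where peaks covered 1.22% and 1.45% (Gfi1 and Lsd1, tumor 39) and 0% and 1.80% (tumor 41).

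Boc (chr16:44485049-44558897) and Gas1 (chr13:60174405-60177365), both on the minus strand, are co-receptors that present ligand to Ptch1. The start of Mir3081 lies in the Boc promoter site or within 1000 bp of it. The Boc promoter peak ranked at 76.1 (Gfi1) and 38.3 (Lsd1) in tumor 39, against 36.5 and 62.3 in tumor 41. The order of the factors was therefore opposite in the 2 tumors. Boc had 2 further sites, in intron 1 and intron 4, each with peaks in every list but that of Gfi1 in tumor 41. Gas1 is a single-exon gene, and its 1 site, chr13:60174783-60179821, is wider than the whole 2.96 kb gene. The start of Gm48488 lies in this site or within 1000 bp of it. Gas1 ranked at 98.6 (Gfi1) and 97.9 (Lsd1) in tumor 39, and at 64.9 and 98.3 in tumor 41. Only the Gfi1 list of tumor 41 placed it below the upper 20%.

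Smo (chr6:29735503-29761365, plus strand), the membrane protein that passes the signal on once Ptch1 releases it, had a promoter peak at 91.6 (Gfi1) and 65.0 (Lsd1) in tumor 39, and at 52.6 and 78.8 in tumor 41. The 2 tumors spread widely for Gfi1, with a mean of 72.1 ± 27.6 (SD, n = 2), and less for Lsd1, with 71.9 ± 9.77. The highest site in the Smo window was not its own. It lay past the 3′ end at the start of the neighbouring gene Ahcyl2 and reached 92.2 (Gfi1) and 94.9 (Lsd1) in tumor 39, and 88.0 and 95.3 in tumor 41. A weaker site in intron 9 was listed for Gfi1 in tumor 39 (13.0) and for Lsd1 in tumor 41 (12.8).

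Sufu (chr19:46396896-46488804, plus strand), which binds Gli proteins in the cytoplasm, had the same rank at its 5′ end in all libraries to within about 1 point. Its 5′ peak ranked at 98.6 for both factors in tumor 39, and at 98.0 for Gfi1 and 97.6 for Lsd1 in tumor 41. The start of Actr1a lies in the site of this peak or within 1000 bp, and the peak's height cannot be given to Sufu alone. Further in, chr19:46477263-46485964 in intron 10, at the start of a noncoding Sufu transcript, was listed in all 4 libraries at 78.0 and 75.7 (Gfi1 and Lsd1, tumor 39) and 71.4 and 81.0 (tumor 41). An intron 3 site with no annotated start of Sufu, chr19:46443931-46449291, was also found in all 4, at 33.8 and 83.1 in tumor 39 and at 49.8 and 40.8 in tumor 41.

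Gli1 (chr10:127329882-127341974, minus strand), the activator that is also a standard readout of the pathway, had a promoter site of 8092 bp. It ranked at 97.4 (Gfi1) and 98.98 (Lsd1) in tumor 39, and at 95.8 and 99.2 in tumor 41. Lsd1 stood slightly above Gfi1 in both tumors. The gene is 12.1 kb long, and peaks covered much of its window, 62.1% (Gfi1) and 57.7% (Lsd1) in tumor 39 and 20.4% and 48.1% in tumor 41. None of its 3 other sites was an internal site of Gli1 alone. One lay at the start of Arhgap9, another at the start of Gm47200 in intron 12, and the last was a flank site upstream, chr10:127349925-127352685.

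Gli2 (chr1:118834132-119053619, minus strand), the main activator at the start of the response, had a promoter peak at 96.8 (Gfi1) and 94.2 (Lsd1) in tumor 39, and at 80.2 and 95.3 in tumor 41. It held more further sites than any other member, described after Gli3. Gli3 (chr13:15463235-15730026, plus strand), which acts mostly as a repressor, had 1 peak in the whole 287 kb window. That peak was a Gfi1 peak of tumor 39, chr13:15463925-15464532, 608 bp wide, with a score of 53.6 and a percentile of 4.19, close to the lowest score any list holds. It covers the start of the principal Gli3 transcript, and the start of Gm6556 lies in it or within 1000 bp. The Gfi1 list of tumor 41 and both Lsd1 lists held no peak anywhere in the window.

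An absence of Lsd1 peaks was found at other genes of this length too. Among the 998 coding genes of 200 kb or more, a length class chosen after the value of Gli3 was seen, 20.7% had no Lsd1 peak in their window. Promoters of like CG content were then looked at alone. Of 1205 coding-gene promoters with at least 39 CG pairs, the count of Gli3, 83.9% had a peak in all 4 libraries and 54, or 4.48%, had no Lsd1 peak within reach of either tumor's list. Gli3 is 1 of these 54, while Ptch1, with the sequence shown above of like CG content, is among the most highly ranked of all promoters. This cut was also made at the value of Gli3 and is a description only.

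Ordered by the mean promoter percentile over the 4 libraries, Ptch1 stood at 99.1 ± 0.501, Sufu at 98.2 ± 0.501, Gli1 at 97.8 ± 1.56, Gli2 at 91.6 ± 7.69, Gas1 at 89.9 ± 16.7, Smo at 72.0 ± 16.9 and Boc at 53.3 ± 19.2 (SD, n = 4 libraries of 2 tumors). The SD here holds both the difference between factors and that between tumors. Among the 11653 coding genes with a promoter peak in all 4 libraries the median was 82.0, and Ptch1 was number 145 from the top, Sufu 446, Gli1 533, Gli2 2609, Gas1 3240, Smo 8464 and Boc 10799. Thus 5 of the 7 genes lay above the median gene and 2 below it.

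Not all neighbours in this order were separated by the libraries. Gas1 was above Smo in 4 of 4 libraries, by 17.9 ± 11.2 on average, and Smo above Boc in 4 of 4, by 18.7 ± 5.35. Gli1 was above Gli2 in 4 of 4, by 6.23 ± 6.52. Sufu and Gli1 changed places between libraries, with a difference of 0.34 ± 1.68. Gli2 and Gas1 could not be ordered either, since the mean put Gli2 higher by 1.69 ± 9.08 and yet Gas1 ranked higher in 3 of the 4 libraries. Ptch1 was above Sufu in 3 libraries and tied with it, at the score 3100, in the Gfi1 list of tumor 39.

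**Figure D2:**
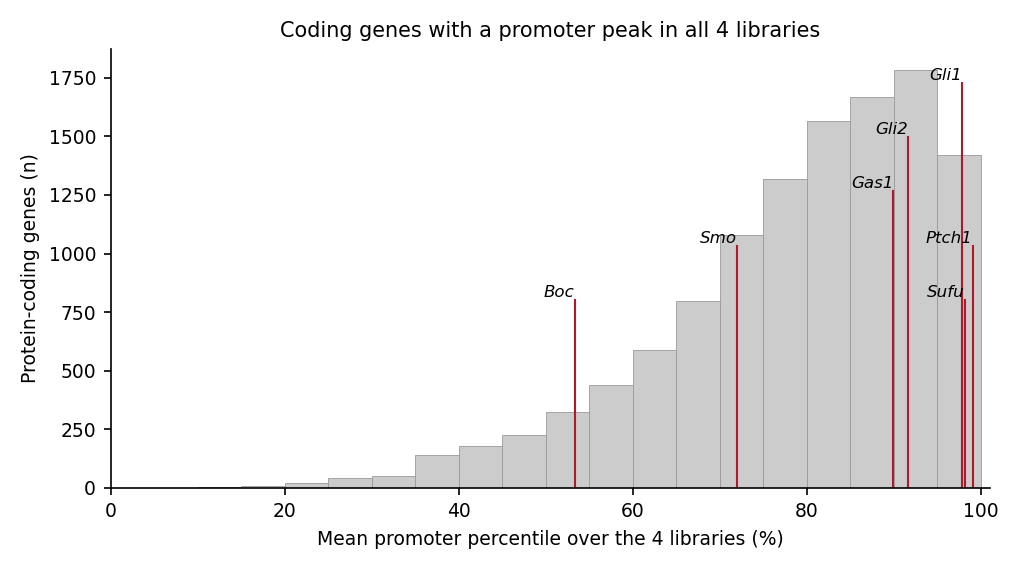
Histogram of the mean promoter percentile over the 4 libraries for the 11653 coding genes with a promoter peak in all 4, in steps of 5 percentile points. Red lines mark the 7 members that have such a mean, and their height has no meaning. Gli1, Sufu and Ptch1 fall in the last bar, and Boc lies in the left tail.

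By these ranks the 2 tumors differed more for Gfi1 than for Lsd1, a difference that was not tested. The Gfi1 percentile was higher in tumor 39 than in tumor 41 for 6 of the 7 genes by mean rank, and the same held for 77.4% of the 11653 coding genes. Ptch1, the exception, and Sufu hold the tied score 3100 in the Gfi1 list of tumor 39, so that their order between tumors is set by the ties. The median difference, tumor 39 minus tumor 41, was 16.6 points over the 7 genes and 7.26 over all. For Lsd1 the order was mostly the other way. Lsd1 was higher in tumor 41 for 5 of the 7 genes and for 66.3% of coding genes, with median differences of -0.35 and -2.27 points. Ptch1 and Gli1 cannot be ordered here, since Ptch1 has the tied score in both Lsd1 lists and Gli1 in that of tumor 41. Gli2, Gas1, Smo and Boc each lost over 10 points for Gfi1 from tumor 39 to tumor 41, and the Gfi1 list of tumor 41 is also the shortest of the 4. The part of list length in this difference was not tested.

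Taking peaks of all lists that touch as 1 site, the 9 windows held 59 sites made of 178 peaks, of which 57 peaks came within 1000 bp of an annotated start of their gene. These include starts of noncoding transcripts inside Ptch1, Sufu, Gli1 and Gli2. The other 43 sites were spread unevenly. Gli2 had 20, Ptch1 and Sufu 8 each, Gli1 3, Boc and Smo 2 each, and Hhip, Gas1 and Gli3 had 0. Of the 43, 9 were found in all 4 libraries and 16 in 1 library. Over the whole genome 16709 of 44474 sites were found in all 4, a set that also includes sites at start sites and is unlike in that. A site in all 4 need not hold a position shared by all 4 lists, as at intron 3 of Sufu. Without the Gfi1 list of tumor 41, 17 were found in the remaining 3 lists, and within the upper 20% or the upper 40% of the score 1 site was found in all 4, that at the start of Ahcyl2. With the 2 tumors pooled, both factors had a peak at 22 of the 43, Gfi1 alone at 8 and Lsd1 alone at 13. Both factors need not have met in the same tumor, as at intron 9 of Smo, with Gfi1 in tumor 39 and Lsd1 in tumor 41. The same shares over all sites were not computed, so that these counts are a description only.

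**Figure D3:**
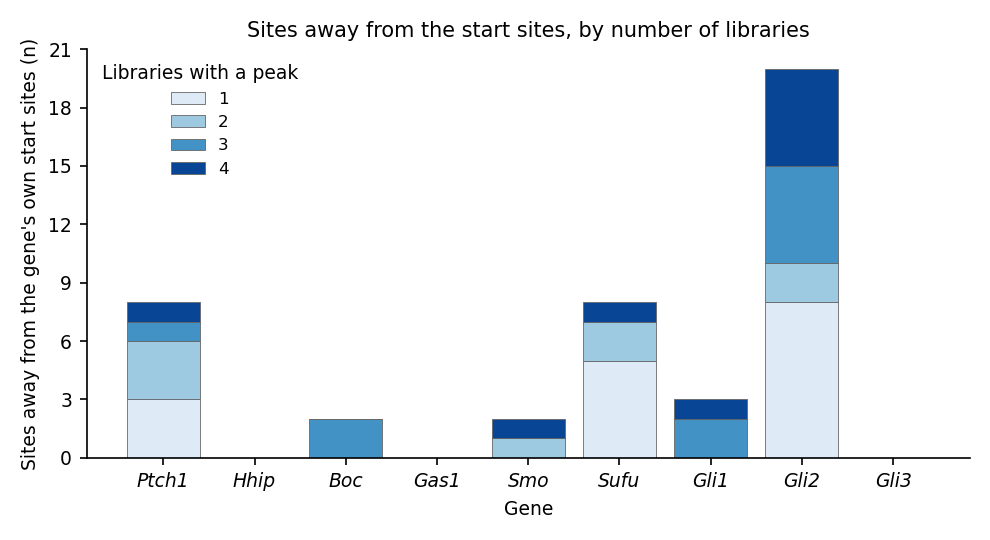
Number of sites away from each gene's own start sites, stacked by the number of libraries, from 1 to 4, that hold a peak there. Gli2 has 20 such sites, of which 5 are in all 4 libraries, and Hhip, Gas1 and Gli3 have 0.

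Gli2 had 22 sites in its 239 kb window, made of 20 Gfi1 and 17 Lsd1 peaks in tumor 39 and of 8 and 21 in tumor 41. Of its 20 sites away from start sites, 18 were internal, 17 of them in introns 1 and 2 with the last in intron 3. The median coding gene of 200 kb or more had 3 sites in all, 3.81% of such genes had at least as many as Gli2, and 4.31% had as many or more in all 4 libraries away from their own starts. Peaks covered 11.2% (Gfi1) and 15.7% (Lsd1) of the window in tumor 39 and 7.13% and 14.6% in tumor 41.

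The 5 Gli2 sites found in all 4 libraries away from its starts were 4 in intron 2 and 1 past the 3′ end. The most even of them, chr1:118999989-119002643, lies 52.3 kb from the 5′ end and ranked at 67.7 for both factors in tumor 39, and at 56.3 for Gfi1 and 55.0 for Lsd1 in tumor 41. At chr1:118938881-118943044 Gfi1 ranked at 13.1 and Lsd1 at 62.0 in tumor 39, while they stood at 62.9 and 50.3 in tumor 41. The order of the factors therefore did not repeat. Gfi1 was listed there as separate peaks of 687, 1095 and 732 bp in tumor 39 and as 1 peak of 2674 bp in tumor 41. Lsd1 was split in both tumors. The part of this splitting in the order was not tested. The other intronic sites, chr1:118976019-118977629 and chr1:118912447-118914129, ranged from 23.5 to 54.5 and from 16.6 to 38.2 over the 4 libraries. The site past the 3′ end, chr1:118824062-118826613, ranged from 41.1 to 64.4. All 5 lay below the Gli2 promoter in each library, and none reached the upper 20%. A further intron 2 site, chr1:118979844-118983502, covers the start of a noncoding Gli2 transcript and ranked at 59.9 and 79.1 in tumor 39 and at 69.3 and 72.9 in tumor 41. Sites in intron 1 between 19.5 and 37.5 kb were listed more often for Lsd1. Of the 6 there, Lsd1 had 5 in tumor 39 and 4 in tumor 41, and Gfi1 had 3 and 1. Over coding genes, an internal site in all 4 libraries was found in 18.3% of those of 50 kb or more and in 4.65% of shorter ones, and among the members in Gli2 (4 sites), Ptch1 (1) and Sufu (1).

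**Figure D4:**
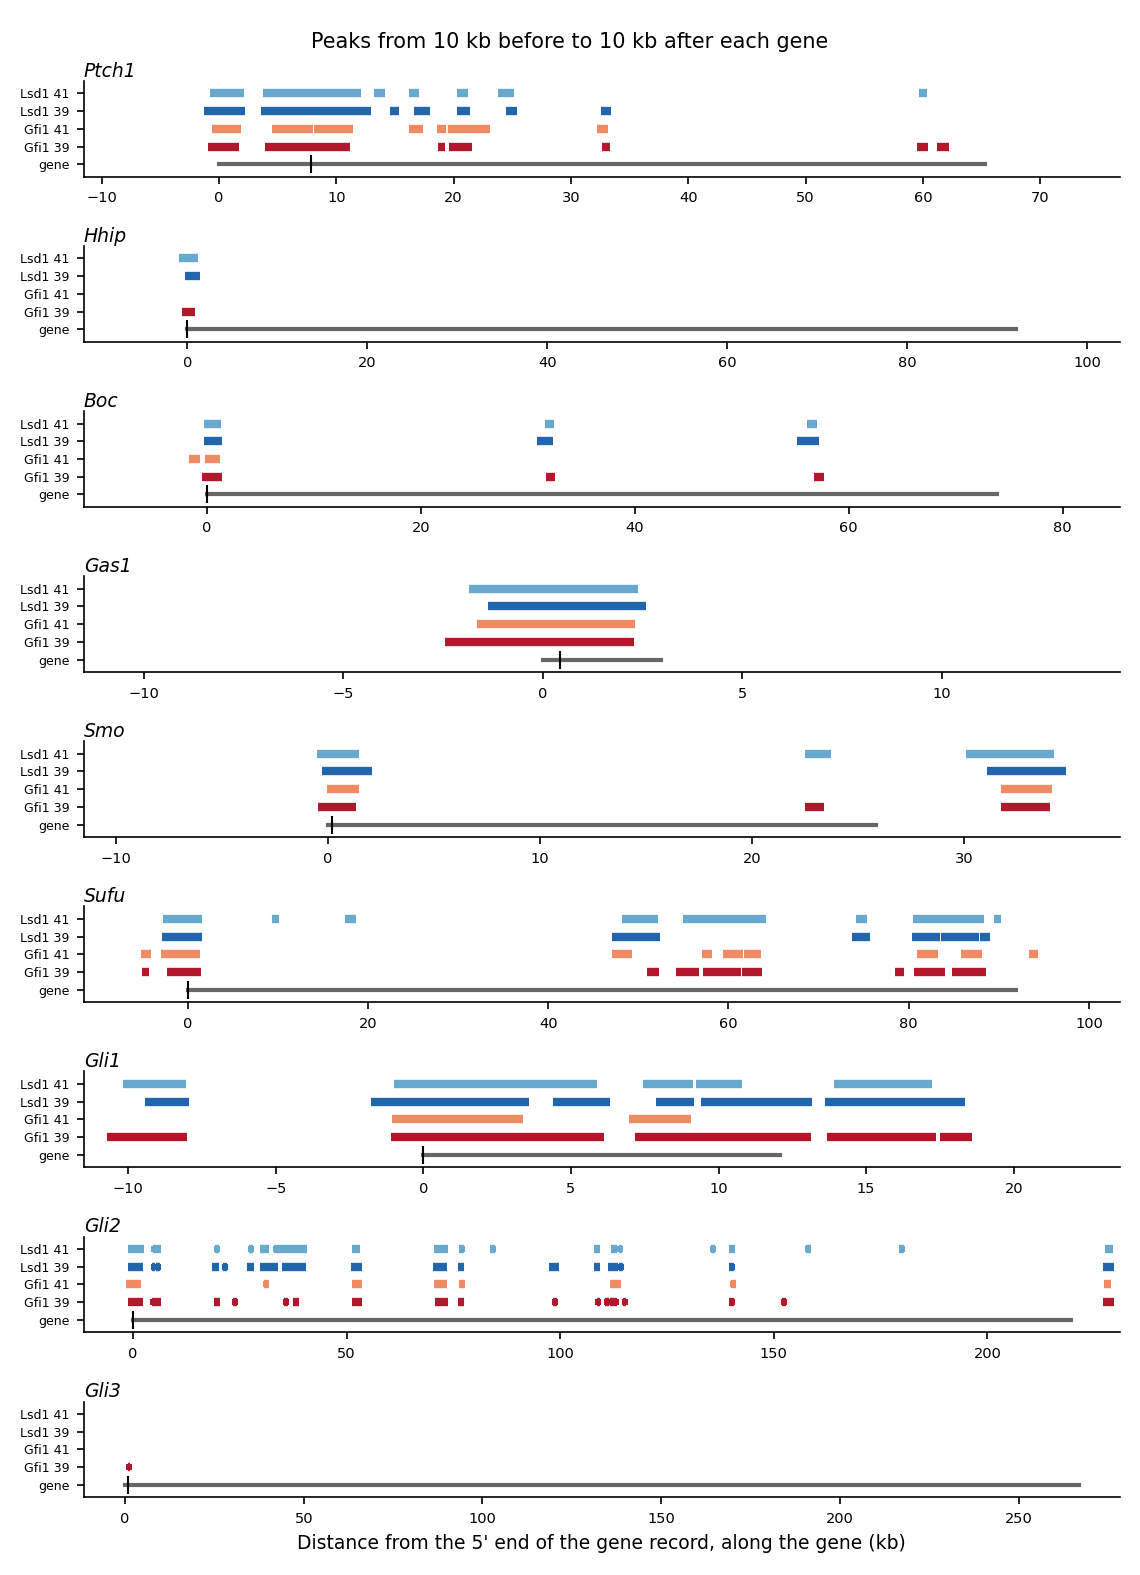
Peaks in the window of each gene, drawn to scale along the gene from its 5′ end in kb, with a lane for each of the 4 libraries. The grey line is the gene record, the black tick the start of the principal transcript, and small squares mark peak midpoints. Peaks recur along Gli2, cluster in the first 25 kb of Ptch1 and in the distal part of Sufu, and are limited to the start in Hhip and Gas1.

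In the 85.3 kb window of Ptch1, the sites away from its starts lay mostly in intron 2, between 13.7 and 24.6 kb from the outermost 5′ end. One of the 8 was found in all 4 libraries, at chr13:63551560-63554092, with percentiles of 59.4 (Gfi1) and 29.6 (Lsd1) in tumor 39 and 59.3 and 20.6 in tumor 41. Gfi1 stood above Lsd1 there in both tumors. The remaining 7 were listed in 1 to 3 libraries, the highest at percentile 43.2.

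Within each tumor the 2 factors met at most Gfi1 peaks of these windows. In tumor 39, an Lsd1 peak overlapped 37 of 50 Gfi1 peaks by 1 bp or more (74.0%, exact 95% binomial interval 59.7 to 85.4), and in tumor 41, 26 of 33 did (78.8%, 61.1 to 91.0). In the whole Gfi1 lists the shares were 69.0% and 88.9%. The interval of each tumor, which covers counting error only, holds the share of its own whole list. Read from the other side, 35 of 43 Lsd1 peaks met a Gfi1 peak in tumor 39 (81.4%, 66.6 to 91.6) and 24 of 52 in tumor 41 (46.2%, 32.2 to 60.5), where the whole lists gave 77.0% and 62.6%. The interval of tumor 39 holds the share of its list and that of tumor 41 lies below it. Away from the members' start sites, 22 of 30 Lsd1 peaks met a Gfi1 peak in tumor 39 (73.3%, 54.1 to 87.7) and 13 of 39 in tumor 41 (33.3%, 19.1 to 50.2), where Lsd1 peaks at no annotated start of any gene gave 60.0% and 47.8% over the whole lists. At the members' starts 13 of 13 and 11 of 13 did, and Lsd1 peaks at any start gave 93.4% and 77.0%. All 4 of these intervals for the members, 75.3 to 100 and 54.6 to 98.1 at the starts, hold the share of the whole list. The sets away from starts are unlike, since the members' peaks include those at other genes' starts, such as Ahcyl2, and the list's do not. Of the Lsd1 peaks of tumor 41 with no Gfi1 peak, 12 lay in Gli2 and 5 in Sufu. Peaks of 1 gene lie side by side and are not independent, and these intervals take no account of that.

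When only the central 200 bp of the peaks were compared, the share of Gfi1 peaks on Lsd1 fell from 76.4% ± 3.39 to 21.6% as the mean over the 2 tumors, and that of Lsd1 peaks on Gfi1 from 63.8% ± 24.9 to 19.5%. Shorter intervals can only lower such a share, and over the whole lists the same measure gave 38.2% ± 7.28 for Gfi1 and 36.4% ± 5.21 for Lsd1.

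The sites of the 7 genes with a promoter sequence were searched on both strands for TGGGTGGTC for the Gli factors, AATCACNGC for Gfi1 and CACGTG, the E-box of Myc, which reads the same on both strands and was counted once. AATC, the core within the Gfi1 letters, was added later. The sites of Boc and Gli1, which had no such promoter sequence, were left out of the search. None of the 7 RefSeq promoter windows of 300 bases held any of the first 3, which 0.253%, 0.919% and 7.15% of all promoters hold. The sites, 51 in all and 127 kb long, held 4 matches to the Gli letters. These are shown because 3 of the 4 lie in the Ptch1 promoter sites, with the match in capitals.
Ptch1, chr13:63566405-63566473, minus strand: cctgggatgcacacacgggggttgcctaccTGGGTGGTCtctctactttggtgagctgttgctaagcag
Ptch1, chr13:63569255-63569323, plus strand: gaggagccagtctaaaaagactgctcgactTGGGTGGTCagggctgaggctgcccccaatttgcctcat
Ptch1, chr13:63573455-63573483, plus strand: gccctcggcgTGGGTGGTCtgccgcgcca
Gli2, chr1:118969513-118969581, minus strand: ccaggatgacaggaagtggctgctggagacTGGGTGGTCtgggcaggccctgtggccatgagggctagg
The match at chr13:63566435-63566443 is 700 bp from the nearest Ptch1 start and was covered by a peak in all 4 libraries. The match at chr13:63569285-63569293 was covered in 3, all but the Gfi1 list of tumor 41, and the match at chr13:63573465-63573473, 5 bp from the nearest annotated Ptch1 start, which is not the outermost, in all 4. The Gli2 match, in intron 2, was covered in the Lsd1 list of tumor 41 alone. The 4 matches are 3.15 per 100 kb of site (exact 95% Poisson interval 0.858 to 8.06), and all 44474 sites of the 4 lists gave 1.15, which lies in that interval.

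The full Gfi1 letters were found at 2 sites, neither of them a promoter.
Smo intron 9, chr6:29758089-29758157, minus strand: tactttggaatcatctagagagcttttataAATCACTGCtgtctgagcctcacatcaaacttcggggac
Sufu upstream flank, chr19:46391861-46391929, plus strand: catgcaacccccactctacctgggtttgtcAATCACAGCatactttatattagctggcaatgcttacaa
The Smo match was covered by the Gfi1 peak of tumor 39 and the Lsd1 peak of tumor 41, and the Sufu match by the Gfi1 peaks of both tumors and by no Lsd1 peak. That is 1.57 per 100 kb (0.191 to 5.68) against 2.47 over all sites. The short core AATC was found at each of the 51 sites, 461 per 100 kb (424.5 to 499.98) against 481 over all sites, and in 1 of the 7 promoter windows, that of Gli2, where 73.1% of all promoters hold it. Those 7 windows hold from 12 (Sufu) to 47 (Ptch1) CG pairs, against a median of 7 over all promoters. The shares were not matched for base content. The E-box stood at 20.5 per 100 kb (13.4 to 29.98) and at 20.4 over all sites. A match is a run of letters and shows no binding by the factor.

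The wider pathway was taken from a list of 36 genes in 5 groups. Of these, 25 had a promoter peak in all 4 libraries (against 53.1% of coding genes), 1 in none (against 33.6%), and 9, or 25%, ranked in the upper 20% in all 4 (against 19.9%). The 8 kinase and degradation genes encode kinases that phosphorylate Gli proteins, subunits of such kinases or parts of the ubiquitin ligase machinery. All 8 had a promoter peak in every library, and 6 of the 8 were in the upper 20% throughout. Gsk3b, a kinase that acts on Gli proteins, ranked at 98.6 (Gfi1) and 99.3 (Lsd1) in tumor 39, and at 99.6 and 99.2 in tumor 41. Fbxw7, a substrate receptor of a ubiquitin ligase, ranked from 95.1 to 99.2, and the protein kinase A subunits Prkar1a and Prkaca from 88.2 to 97.8 and from 86.4 to 94.6. Spop, which marks Gli proteins for degradation, ranged from 87.8 to 96.7 and the casein kinase Csnk1a1 from 88.4 to 97.1.

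Of the 10 genes of the primary cilium, where Smo acts, 9 had a promoter peak in all 4 libraries, against 53.1% of coding genes. In the upper 20% throughout were 3 of the 10, against 19.9% of coding genes. Kif3a, a motor subunit of ciliary transport, ranked from 81.0 to 90.3, Grk2, which phosphorylates Smo, from 82.8 to 98.97, and Tulp3, which carries receptors into the cilium, from 92.4 to 97.2. Gpr161, a ciliary receptor that holds the pathway down, was the 1 gene of the 36 with no promoter peak in any library. Evc and Evc2 lie head to head and share 1 peak.

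Of the 8 ligand genes, which make, release or carry the ligand, 2 had a promoter peak in all 4 libraries, Disp1, which releases the ligand, and Scube1, and 0 were in the upper 20% throughout. Shh itself had 1, a Gfi1 peak of tumor 39 at percentile 4.36, a pattern close to that of Gli3. Shh, Disp1, Scube1, Evc and Evc2 are named here after their values were seen. Of 4 further receptor genes 2 had a peak in all 4 libraries, and of 6 target genes 4 did, where the share over all coding genes was 53.1%. No test between these groups was run, and each is small.

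**Figure D5:**
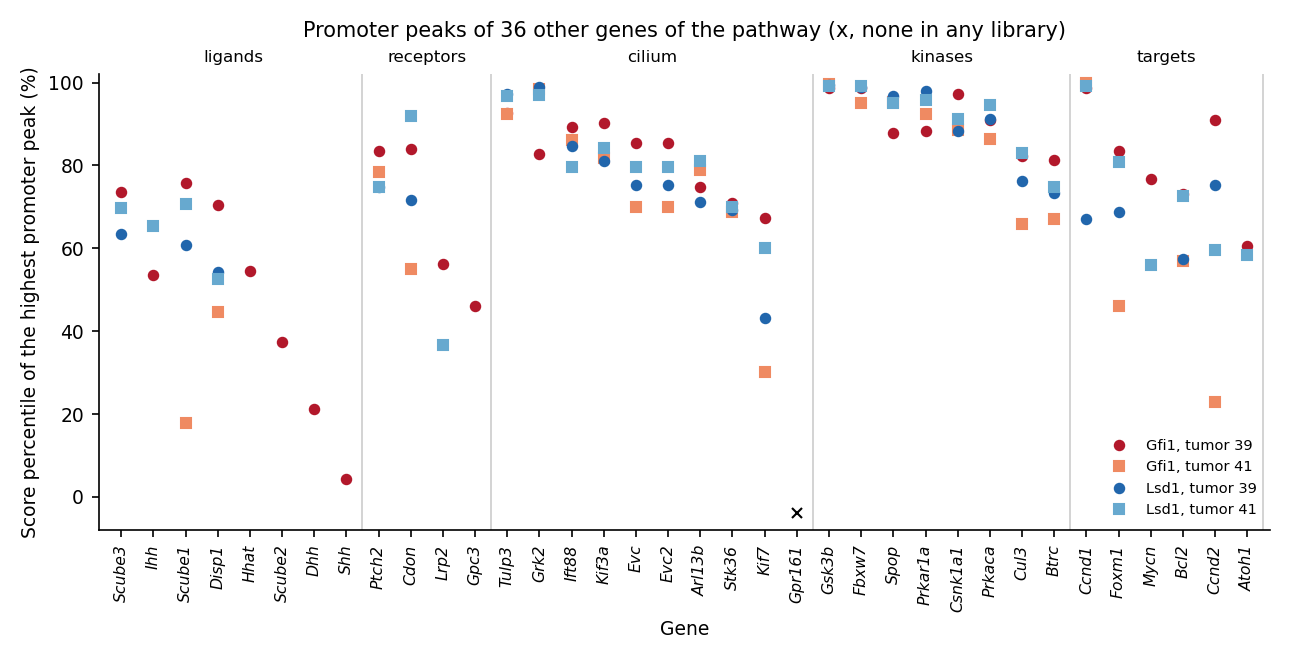
Score percentile of the highest promoter peak in each library for 36 other pathway genes, sorted within 5 groups by their mean, with no point where a library has no promoter peak. Circles are tumor 39, squares tumor 41, red Gfi1 and blue Lsd1. Kinase and degradation genes have 4 points each, whereas 6 of the 8 ligand genes lack at least 1.

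The rule for naming genes of like pattern took the 3 coding genes nearest to Ptch1, the highest member, in their 4 promoter percentiles. These were Ankrd10, Crlf2 and Dedd2, at distances of 0.00399, 0.0160 and 0.0678 percentile points. All 3 share the score 3100 with Ptch1 in 3 lists, so that this likeness rests on ties.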

How the data were processed

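Gfi1 and Lsd1 ChIP-seq peak lists of 2 MG tumors were analysed, 1 list per library. The authors aligned reads to mm10 with BWA (0.6.2 in the submitters' processing notes, which also name Picard and FastQC), removed duplicates and called peaks with MACS in each library. The deposited lists give a position and a score, the authors' value, whose definition is not given in the sources used here. Other columns were not used. Read depth per library was not used here, and intervals cover counting error only.

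TSSs and genes came from GENCODE release M21 on GRCm38, where the authors used an earlier release. Promoter peaks came within 1000 bp of a TSS, sites were merged peaks of all lists, and overlap between factors within a tumor required 1 bp. Same-numbered libraries come from the same tumor, which pairs them. Promoter sequences are RefSeq's, on GRCm38.p6, and 7 of 7 matched the genome. The genes named are the 9 members and genes whose start lies in a member's site or within 1000 bp of it. Also named are pathway genes with a promoter peak in no library or in the upper 20% in all 4. The last are the 3 genes nearest to Ptch1 in rank and 5 pathway genes chosen after their values were seen. Members, lists and alternatives were chosen with earlier results of these data known. The overlap and promoter steps were tested on simulated data, and the percentile step was not. Python 3.11.15, numpy 2.4.6, pandas 2.3.3, scipy 1.17.1, pysam 0.24.0 and matplotlib 3.10.9 were used.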

Additional observations from a re-analysis of the deposited data

How the results depend on the processing

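Of 60 alternative values, 48 stayed within the limits set, 1.5 times a count or 1 SD of a mean, and 12 moved. For the overlap shares the SD came from the same 2 tumors, so that the share of a single tumor could not move by this limit. For Lsd1 peaks on Gfi1 that SD was 24.9 points, a wide limit. The count of 48 is therefore no measure of robustness. The 7 members with a promoter peak in all libraries became 4 within the upper 20% of the score and 5 within the upper 40%, and 7 to 8 when a library was left out. They remained 7 in number with promoter windows of 500 or 2500 bp, coding transcripts alone or the 5′ end of the gene record. The 9 other sites in all 4 libraries became 20 with 50 kb on either side and 1 within the upper 20% or the upper 40%, and 8 to 17 without 1 library, the 17 without Gfi1 in tumor 41. Other sites in any library, 43, became 71 with 50 kb on either side, 4 within the upper 20% and 10 within the upper 40%, and 36 to 45 without 1 library. The share of Gfi1 peaks on Lsd1 was 21.6% over the central 200 bp, 85.0% within the upper 20%, and 74.0% to 78.8% in single tumors. The share of Lsd1 peaks on Gfi1 was 19.5% over the central 200 bp and 46.2% to 81.4% in single tumors. Against the other tumor, with no replicate block, these shares were 75.9% and 62.7% as means over the 2 tumors, each within 1 SD of its paired mean. Opposite changes in the single tumors could cancel in such a mean, so that it does not show whether the pairing mattered. The median member percentile, 91.6, was 89.9 to 96.8 without 1 library and 89.9 at the 5′ end. The mean percentile of Ptch1 moved to 83.7 at the 5′ end. The causes were not tested. Read depth was not used here, and 2 tumors limit every value to description.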
